A study of Mus musculus with 12 samples.

Results

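The genes described here are 33 genes that mark T cells and natural killer (NK) cells or carry out their functions, measured in whole mouse liver. They were chosen by name, but with earlier results of these data known. All 33 had a probe on the array, out of 45616 genes and unnamed transcripts. Of the 33, 29 were bright enough to be tested and 4 (Cd8a, Sh2d1a, Ncr1 and Eomes) were not. The livers came from 12 male mice aged 7 weeks, in 4 groups of 3. They were wild-type mice given vehicle, wild-type mice given IIAEK, Akp3-/- (IAP-KO) mice given vehicle and Akp3-/- mice given IIAEK. Akp3 encodes an intestinal alkaline phosphatase (IAP) of the gut brush border, and IIAEK is a short peptide, named by the letters of its residues. The peptide was given by mouth at 600 mg/kg body weight per day, once a day for 14 days. The vehicle was carboxymethylcellulose sodium salt in solution, at 5 g/L. The livers of all 12 mice were collected after a fast of 8 h, and each liver was hybridised to its own array. The strain of either genotype, and whether the wild-type mice were littermates of the knockouts, was not given in the sources used here. IAP is known as an enzyme of the intestine and not of the liver.

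No T or NK cell gene passed the test in any of the 6 comparisons of the 4 groups, where at most 0.00757% of all genes tested did. The lowest values after IIAEK were those of the NK cell receptor genes Klrd1 and Klrb1c in wild-type mice, at log2 changes of -1.76 and -1.31, with an adjusted p of 0.393 for both. The median SD between mice of the same group was 0.571 on the log2 scale for the 29 tested genes, against 0.291 over all genes tested. Within groups most of these genes were high or low together, less clearly in wild-type mice given vehicle. The second knockout mouse given IIAEK had the highest level of 15 of them, where it had that of 3.08% of all genes. Among the 15 were genes of the T cell receptor complex, its signalling, cytokines and chemokines.

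T cells recognise peptides through a T cell receptor that signals through the CD3 chains and the zeta chain, and the kinases LCK and ZAP70 and the adaptor LAT carry that signal on. NK cells carry no such receptor and instead weigh signals from activating and inhibitory receptors, many of them of the C-type lectin family. Both cell types can kill by releasing granules of perforin and granzymes, and both secrete interferon gamma and the chemokines CCL5 and XCL1. The liver of the mouse is known for a large resident population of NK cells, related innate lymphoid cells and NKT cells, which share many of these genes and lie in the sinusoids. In whole liver, fewer cells of a type and less RNA per cell cannot be told apart.

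Promoter sequences were available from RefSeq (mouse build GRCm38.p6) for 22 of the 33 genes, 26 windows in all because some genes have several starts, a few of which overlap. Each window is the 250 bases before a start. Binding motifs of 3 families of transcription factors that lymphocytes use were searched on both strands, namely the RUNX motif TGTGGT, the ETS motif CAGGAA and the T-box motif TCACAC, and matches to different motifs could share bases. The 5 promoters below are shown because the results turn on these genes. Klrb1c had the smallest p of the 29 genes in wild-type mice, Gzmb varied most within groups, Nkg7 was highest in the mouse that was highest for most genes, and the neighbours Cd3d and Cd3e did not follow each other. Capitals mark the matches, and each sequence reads 5′ to 3′ toward its gene.
Klrb1c, chr6:128788642-128788891, minus strand: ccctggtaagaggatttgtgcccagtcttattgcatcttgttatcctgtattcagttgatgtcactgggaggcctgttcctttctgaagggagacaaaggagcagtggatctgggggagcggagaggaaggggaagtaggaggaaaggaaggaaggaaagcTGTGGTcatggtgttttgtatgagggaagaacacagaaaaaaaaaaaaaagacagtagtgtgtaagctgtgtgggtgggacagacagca
Gzmb, chr14:56262335-56262584, minus strand: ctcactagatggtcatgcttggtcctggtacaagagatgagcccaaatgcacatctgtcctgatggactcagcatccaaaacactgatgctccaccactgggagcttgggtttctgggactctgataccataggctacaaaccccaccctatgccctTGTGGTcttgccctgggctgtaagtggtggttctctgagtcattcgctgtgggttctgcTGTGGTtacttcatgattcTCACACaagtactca
Nkg7, chr7:43436888-43437137, plus strand: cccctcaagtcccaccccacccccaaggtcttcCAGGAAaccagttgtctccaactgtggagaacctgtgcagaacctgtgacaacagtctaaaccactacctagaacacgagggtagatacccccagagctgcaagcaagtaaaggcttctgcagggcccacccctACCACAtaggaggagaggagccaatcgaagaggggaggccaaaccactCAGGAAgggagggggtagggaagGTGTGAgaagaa
Cd3d, chr9:44981536-44981785, plus strand: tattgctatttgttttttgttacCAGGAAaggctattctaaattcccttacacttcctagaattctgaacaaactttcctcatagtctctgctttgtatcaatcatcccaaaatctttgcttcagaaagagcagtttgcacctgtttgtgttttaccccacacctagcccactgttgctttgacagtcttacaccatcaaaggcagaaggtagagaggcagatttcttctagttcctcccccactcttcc
Cd3e, chr9:45009612-45009861, minus strand: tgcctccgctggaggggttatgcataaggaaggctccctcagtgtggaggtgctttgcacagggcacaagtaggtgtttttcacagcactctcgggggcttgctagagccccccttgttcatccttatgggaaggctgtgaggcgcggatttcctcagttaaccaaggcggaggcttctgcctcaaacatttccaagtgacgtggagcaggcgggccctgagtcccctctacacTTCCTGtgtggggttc

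The RUNX motif was found in 13 of the 26 windows (50%) against 14.0% of the 32851 mouse promoter windows of the same length. The ETS motif was found in 15 of 26 (57.7% against 25.7%) and the T-box motif in 8 of 26 (30.8% against 12.3%). Counted by gene, 12 of the 22 genes held a RUNX match, 14 an ETS match and 6 a T-box match. The promoter of Nkg7, which encodes a granule membrane protein of cytotoxic cells, held all 3 motifs, and that of granzyme B (Gzmb) held 2 RUNX matches and 1 T-box match. Klrb1c, Cd3d and Cd3e held 1 match each. The genes also lie close to one another in places. Cd3g, Cd3d and Cd3e are direct neighbours on chromosome 9, as are Cd8b1 and Cd8a, and Klrd1 and Klrk1, on chromosome 6, and Cd5 and Cd6 on chromosome 19. Cd28 and Icos on chromosome 1 have 1 protein-coding gene between them.

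A level is given here as the log2 of the processed signal minus the 75th percentile of its array, so that 0 is the 75th percentile and a step of 1 is a doubling. It compares a gene between arrays and says nothing of 1 gene against another. Replicate 1 of each group was on slide 1 and replicates 2 and 3 were on slide 2, each slide with its own scan day, so slide and scan day cannot be told apart. The 75th percentile ran from 315 to 529 intensity units, and 56.8% to 61.9% of probes were well above background. The first principal component, with 55.4% of the variance, held wild-type vehicle 2 and 3 and knockout vehicle 1 and 3, called the outlying vehicle arrays here, at scores of 74.1 to 88.1 and the other 8 arrays at -57.3 to -11.3. Markers of small intestine were high in wild-type vehicle 2 and those of exocrine pancreas in wild-type vehicle 1. Results are therefore given without these arrays where that changes them. The targeted gene could not serve as a check of the genotype labels, since both Akp3 probes were above background on 0 of 12 arrays. The labels name no further unit than the mouse, so p-values measure the spread between these 3 mice per group.

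Most of the defining markers were present. Cd3d, Cd3e, Cd3g and Cd247, the chains of the T cell receptor complex, and the surface markers Cd2, Cd5, Cd6, Thy1, Cd4 and Cd8b1 were well above background on all 12 arrays. So were Klrb1c (the NK1.1 antigen in the strains that carry it), Klrd1 (CD94), Klrk1 (NKG2D), the granule genes Gzma, Gzmb, Prf1 and Nkg7, and the T-box factor gene Tbx21. For Cd4 and Cd247 this holds for the brightest probe, and whether that probe measures the transcript in liver was not tested. A dimmer probe of each, above background on 11 arrays, correlated with it across arrays at 0.22 for Cd4 and 0.40 for Cd247. Xcl1 was above background on 11 arrays and the interferon gamma gene Ifng on 8. Ncr1, which encodes the NK cell receptor NKp46, was above background on 1 array only, wild-type vehicle 3, and Eomes, the gene of the NK cell factor eomesodermin, on 3 arrays. Sh2d1a, which encodes the adaptor SAP, was above background on 5 arrays. Cd8a, the alpha chain of the CD8 coreceptor, was above background on 5 arrays, with levels of -4.87, -4.95 and -4.72 in wild-type vehicle, of which 2 were above background, and -6.97, -6.77 and -5.96 in wild-type IIAEK, of which 0 were. In knockout mice its levels were -4.91, -5.75 and -3.90 with vehicle (2 above background) and -5.73, -3.53 and -6.18 with IIAEK (1 above background). These 4 genes went into no test.

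**Figure D1:**
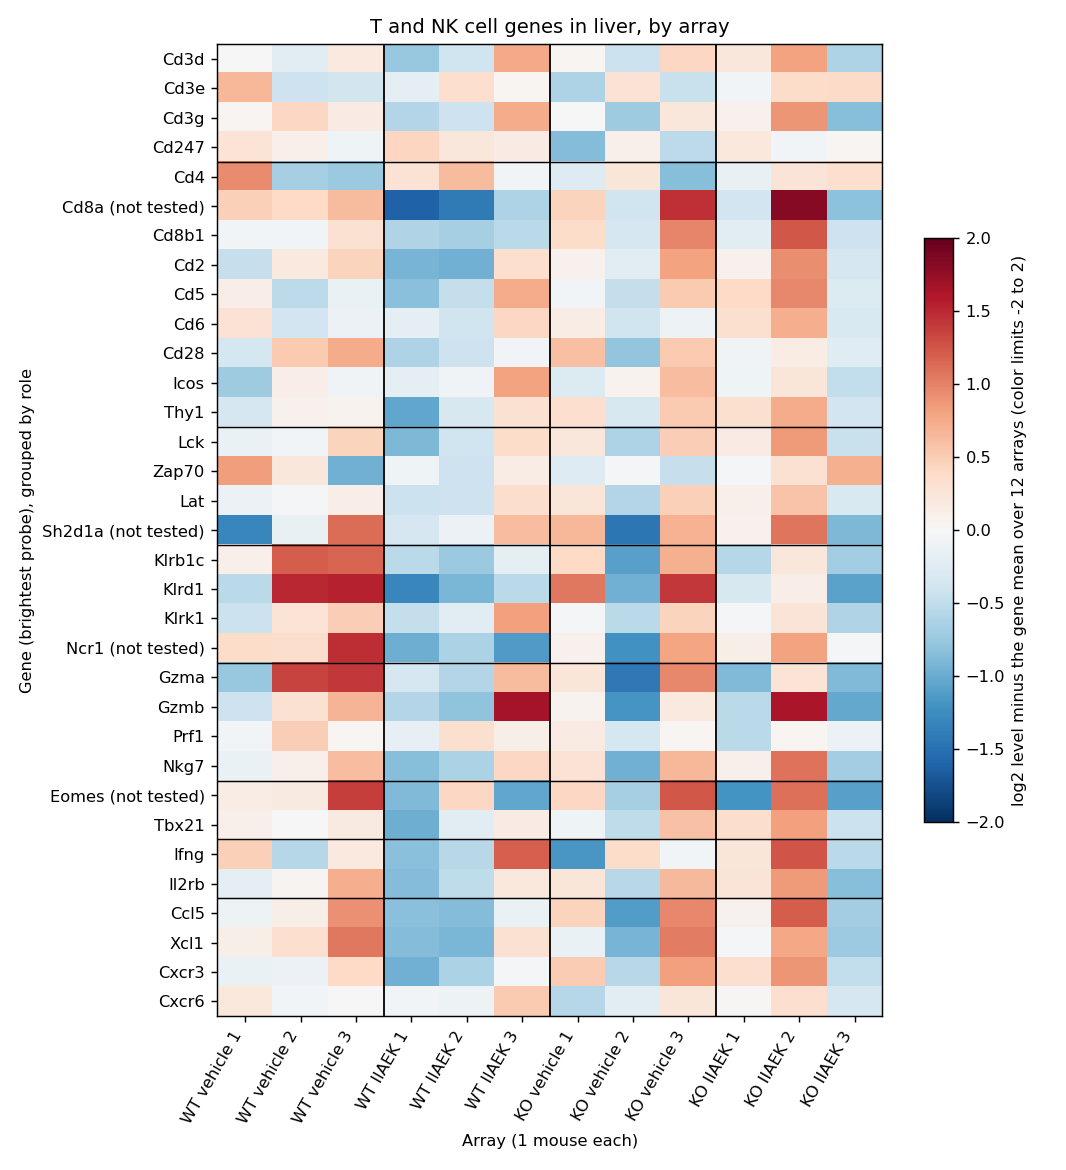
Heat map of the 33 genes (rows, grouped by role and separated by lines) on the 12 arrays (columns, 1 mouse each, ordered by group), with color giving the log2 level minus the gene's mean over 12 arrays and color limits of -2 and 2. Most rows are red on the second knockout IIAEK array and blue on the first wild-type IIAEK and the second knockout vehicle array, while Cd4, Zap70, Cd3e and Cd247 follow other arrays.

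Among the chains of the T cell receptor complex, Cd3d had levels of -1.30, -1.54 and -1.11 in wild-type vehicle and -2.07, -1.71 and -0.56 in wild-type IIAEK. In knockout mice its levels were -1.27, -1.75 and -0.89 with vehicle and -1.08, -0.51 and -1.93 with IIAEK. The highest and the second lowest level of Cd3d thus lay in the same group, and all 4 groups overlapped. Cd3g ran from -3.34 in knockout IIAEK 3 to -1.60 in knockout IIAEK 2, the same pair of mice. The probe for Cd3e, next to Cd3d on the chromosome, did not share this order. Its levels were 0.98, -0.09 and -0.05 in wild-type vehicle, 0.13, 0.66 and 0.36 in wild-type IIAEK, -0.30, 0.61 and -0.13 in knockout vehicle and 0.26, 0.69 and 0.70 in knockout IIAEK. Wild-type vehicle 1 was the highest array for this Cd3e probe, and the 4 outlying vehicle arrays were its 4 lowest. A dimmer Cd3e probe, also above background on all 12 arrays, was highest in knockout IIAEK 3 (-2.58). Its lowest array was wild-type vehicle 2 (-3.89), but wild-type vehicle 3 (-2.91) was not among its 4 lowest. Cd247, the zeta chain gene, was at 1.75, 1.57 and 1.39 in wild-type vehicle, 1.89, 1.70 and 1.63 in wild-type IIAEK, 0.60, 1.56 and 0.95 in knockout vehicle and 1.68, 1.41 and 1.50 in knockout IIAEK. Knockout vehicle 1 and 3 were the 2 lowest for this gene.

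Cd4, the coreceptor gene of helper T cells, was highest in wild-type vehicle 1 (6.26) and lowest in knockout vehicle 3 (4.46), with a median of 5.41 over the 12 arrays. A second Cd4 probe, above background on 11 arrays, also had its highest level in wild-type vehicle 1 (-3.43) but its lowest in wild-type IIAEK 1 (-5.37). Zap70, the kinase gene, ran from 2.41 in wild-type vehicle 3 to 4.22 in wild-type vehicle 1, and its second probe put the same 2 arrays at the ends (1.32 and 3.29). The probes of Cd4, Zap70, Cd3e and Cd247 therefore followed an order of arrays that most of the T and NK cell genes did not. Cd247 had 2 dimmer probes, 1 above background on 0 arrays and 1 on 11, and the latter gave a log2 change of -0.061 after IIAEK in knockout mice, against 0.49 for the bright probe. Whether the bright probes of these 4 genes measure their transcripts in liver was not tested. The hepatocyte marker list (10 genes such as albumin and transthyretin) had its highest median in the same wild-type vehicle 1 (0.48 above its mean over 12 arrays) and its lowest in knockout vehicle 3 (-0.43). Whether this has a part in the levels of these probes was not tested.

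Cd8b1, the beta chain of the CD8 coreceptor of cytotoxic T cells, was at -2.02, -2.02 and -1.65 in wild-type vehicle and at -2.57, -2.62 and -2.50 in wild-type IIAEK, and these groups did not overlap. In knockout mice it was at -1.60, -2.31 and -0.98 with vehicle and -2.20, -0.73 and -2.37 with IIAEK, and these groups overlapped. Cd28 and Icos encode costimulatory receptors of one family. Cd28 was highest on the 4 outlying vehicle arrays, at -2.15 and -1.93 in wild-type vehicle 2 and 3 and -2.07 and -2.14 in knockout vehicle 1 and 3, against -3.47 to -2.52 on the other 8 arrays. Icos did not share this pattern and ran from -2.01 in wild-type vehicle 1 to -0.50 in wild-type IIAEK 3. The adhesion and signalling receptors Cd2, Cd5, Cd6 and Thy1 each had their highest level in knockout IIAEK 2 (-1.22, -1.72, -1.02 and 0.37) and their lowest in wild-type IIAEK 1 or 2. Lck, the first kinase of T cell receptor signalling, and Lat, its membrane adaptor, also peaked in knockout IIAEK 2, at 0.09 and -2.94.

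Klrd1 encodes CD94, which pairs with NKG2 proteins to form inhibitory and activating receptors. Its levels were -1.72, 0.33 and 0.35 in wild-type vehicle and -2.48, -2.09 and -1.73 in wild-type IIAEK. In knockout mice its levels were -0.13, -2.14 and 0.23 with vehicle and -1.50, -1.05 and -2.26 with IIAEK. The 4 outlying vehicle arrays were its 4 highest, between -0.13 and 0.35, and the 2 other vehicle arrays lay within the range of the IIAEK arrays. Klrb1c was at -3.30, -2.20 and -2.24 in wild-type vehicle and -3.94, -4.15 and -3.58 in wild-type IIAEK. In knockout mice Klrb1c was at -3.00, -4.49 and -2.69 with vehicle and -3.97, -3.18 and -4.10 with IIAEK. The same 4 arrays were again the highest, and knockout vehicle 2 was the lowest of all 12. Klrk1, the gene of the activating receptor NKG2D, lies next to Klrd1 and ran only from -1.83 in knockout IIAEK 3 to -0.40 in wild-type IIAEK 3.

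Gzma, which encodes the granule protease granzyme A, was at -0.48, 1.63 and 1.68 in wild-type vehicle, -0.07, -0.30 and 0.92 in wild-type IIAEK, 0.51, -1.16 and 1.24 in knockout vehicle and -0.61, 0.55 and -0.61 in knockout IIAEK. Wild-type vehicle 2 and 3 and knockout vehicle 3 were its 3 highest arrays and knockout vehicle 2 its lowest. Gzmb was highest in wild-type IIAEK 3 (-1.19) and knockout IIAEK 2 (-1.23), and lowest in knockout vehicle 2 (-4.05). Prf1 encodes perforin, the pore-forming protein of the granules, and varied least of the 4 granule genes. It was at -1.62, -1.08 and -1.55 in wild-type vehicle, -1.73, -1.26 and -1.45 in wild-type IIAEK, -1.42, -1.92 and -1.54 in knockout vehicle and -2.12, -1.54 and -1.69 in knockout IIAEK. Nkg7 had its highest level in knockout IIAEK 2 (0.09) and its lowest in knockout vehicle 2 (-1.97). Tbx21, the gene of the transcription factor T-bet, was also highest in knockout IIAEK 2 (-2.65), and lowest in wild-type IIAEK 1 (-4.46).

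Ccl5, a chemokine gene of activated T and NK cells, was at 1.45, 1.66 and 2.45 in wild-type vehicle and 0.71, 0.68 and 1.42 in wild-type IIAEK. In knockout mice Ccl5 was at 1.99, 0.44 and 2.50 with vehicle and 1.63, 2.76 and 0.85 with IIAEK. The wild-type groups did not overlap, while the knockout groups each spanned most of the range of the gene. Xcl1, the gene of lymphotactin, ran from -4.82 in knockout vehicle 2 to -2.85 in wild-type vehicle 3. The chemokine receptor gene Cxcr3 was highest in knockout IIAEK 2 (-1.17) and lowest in wild-type IIAEK 1 (-3.02). Cxcr6, the receptor gene of lymphocytes that patrol the liver sinusoids, varied little. Its levels were -0.64, -0.90 and -0.86 in wild-type vehicle, -0.90, -0.94 and -0.33 in wild-type IIAEK, -1.42, -1.08 and -0.61 in knockout vehicle and -0.82, -0.51 and -1.18 in knockout IIAEK. Il2rb, the receptor chain through which interleukins 2 and 15 signal, and Ifng were both highest in knockout IIAEK 2, at -0.71 and -3.42.

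**Figure D2:**
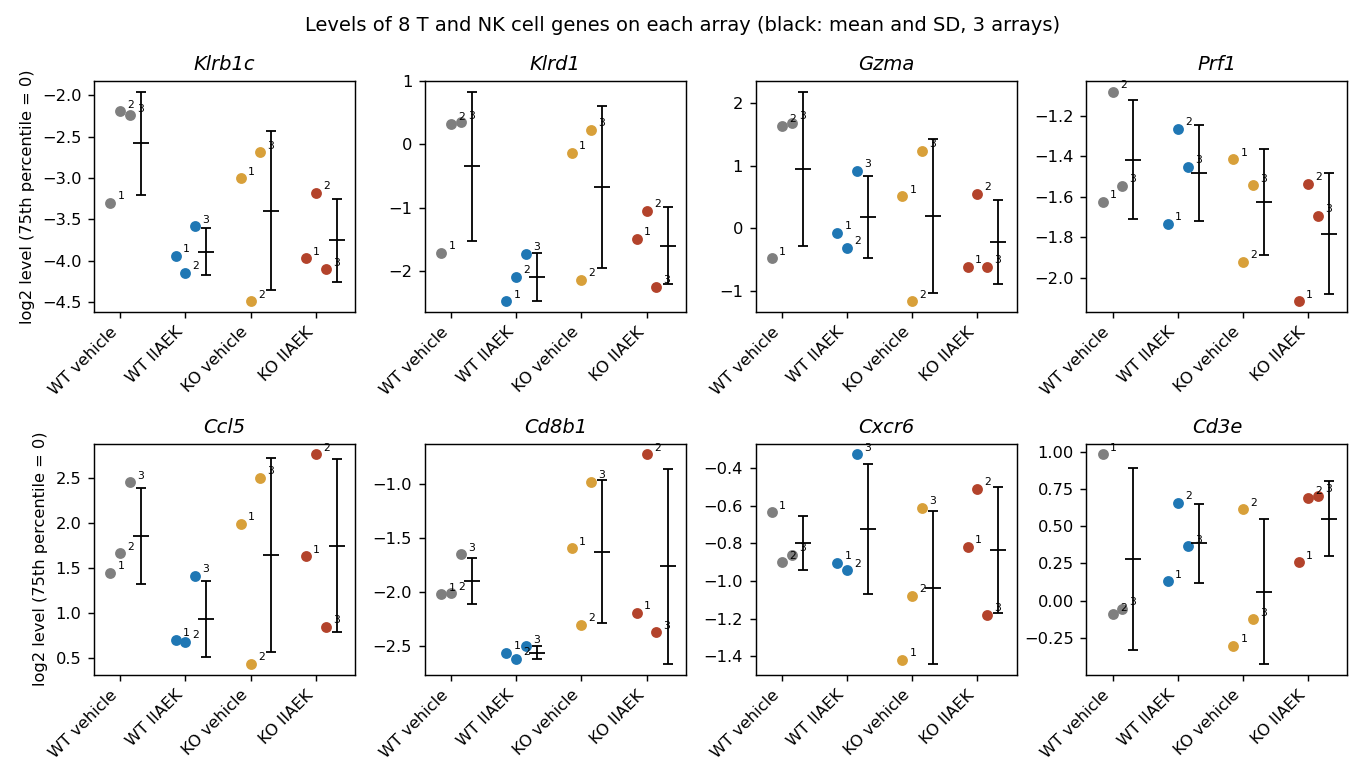
Log2 levels (75th percentile of the array at 0) of 8 T and NK cell genes on the 12 arrays, by group, with the replicate number beside each point and the mean and SD of 3 arrays in black, each panel on its own scale. Klrd1 is high on 4 of the 6 vehicle arrays (-0.13 to 0.35) and low on the other 2 and on all IIAEK arrays, while Prf1 and Cxcr6 stay within narrow ranges.

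The first comparison asked what IIAEK did in wild-type liver. Klrd1, Klrb1c, Xcl1 and Ccl5 had the lowest values, at log2 changes of -1.76 to -0.92, while the NK receptor gene Klrk1 and the chemokine receptor gene Cxcr6 were at -0.061 and 0.075. None of the 29 genes passed limma's test at an adjusted p of 0.05, where 0.00379% of all 26405 genes tested did, and 2 (Klrb1c and Klrd1) had an unadjusted p under 0.05, both lower, where 6.62% of all genes did in that direction. Klrd1 was at -0.35 ± 1.19 (SD, n = 3) with vehicle and -2.10 ± 0.38 with IIAEK, a log2 change of -1.76 (SE 0.67, adjusted p = 0.393), or 3.38-fold lower. Klrb1c was at -2.58 ± 0.62 and -3.89 ± 0.28, a log2 change of -1.31 (SE 0.46, adjusted p = 0.393), or 2.48-fold lower. The 2 other Klrb1c probes were above background on all 3 wild-type vehicle arrays but on 0 and 1 of the 3 wild-type IIAEK arrays, so that they give no size for this change. Next by p were Xcl1 (log2 change -1.0, SE 0.54, adjusted p = 0.415), above background on 2 of the 3 wild-type IIAEK arrays, and Cd28 (-0.66, SE 0.38, adjusted p = 0.433).

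Klrd1, Klrb1c, Ccl5 and Cd8b1 were lower in every wild-type IIAEK mouse than in every wild-type vehicle mouse, so the groups did not overlap in 4 of the 29 genes, where 5.70% of all genes were lower in this way. The gap was narrow for Klrd1 (-1.72 in vehicle 1 against -1.73 in IIAEK 3) and Ccl5 (1.45 against 1.42 in the same mice). No T or NK cell gene was higher without overlap, where 7.26% of all genes were. The median log2 change of the 29 genes was -0.29 against 0.05 over all genes tested, and 23 of 29 were lower, where 44.8% of all genes were. By role the medians were -1.31 for 3 NK receptor genes, -0.76 for 4 chemokine and chemokine receptor genes and -0.32 for 4 granule genes. They were -0.35 for 2 cytokine and cytokine receptor genes and -0.16 for 3 genes of T cell receptor signalling. The 8 coreceptor and surface receptor genes had -0.15 and the 4 genes of the T cell receptor complex -0.01. Of the transcription factor genes only 1 was tested, Tbx21 (-0.43). The NK receptor median is the value of Klrb1c itself, between Klrd1 (-1.76) and Klrk1 (-0.061). Among the chemokine and chemokine receptor genes, values ran from -1.0 for Xcl1 to 0.075 for Cxcr6. The median of the T cell receptor complex lies between Cd3d (-0.13) and Cd3g (-0.29) on one side and Cd3e (0.10) and Cd247 (0.17) on the other. These are descriptions, since the genes moved together between mice.

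The size of the Klrd1 and Klrb1c differences moved with single arrays. On slide 1, with 1 mouse per group, the log2 changes were -0.77 and -0.64, and on slide 2, with 2 mice per group, they were -2.25 and -1.64. Without the 4 outlying vehicle arrays they were -0.39 (adjusted p = 0.825) and -0.59 (adjusted p = 0.657), but wild-type vehicle 1 is then the only vehicle mouse of this genotype, assumed to vary like the other groups. Without wild-type vehicle 1, the array highest for pancreas markers, they were -2.44 (adjusted p = 0.0335) and -1.67 (adjusted p = 0.0427) in limma. In that fit limma called these 2 of the 29 genes, as it did 14.9% of all genes. Wild-type IIAEK 1, which stayed in, was the next highest array for pancreas markers. Over all alternatives, Klrd1's adjusted p ran from 0.0335 to 0.825 and Klrb1c's from 0.0427 to 0.737.

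**Figure D3:**
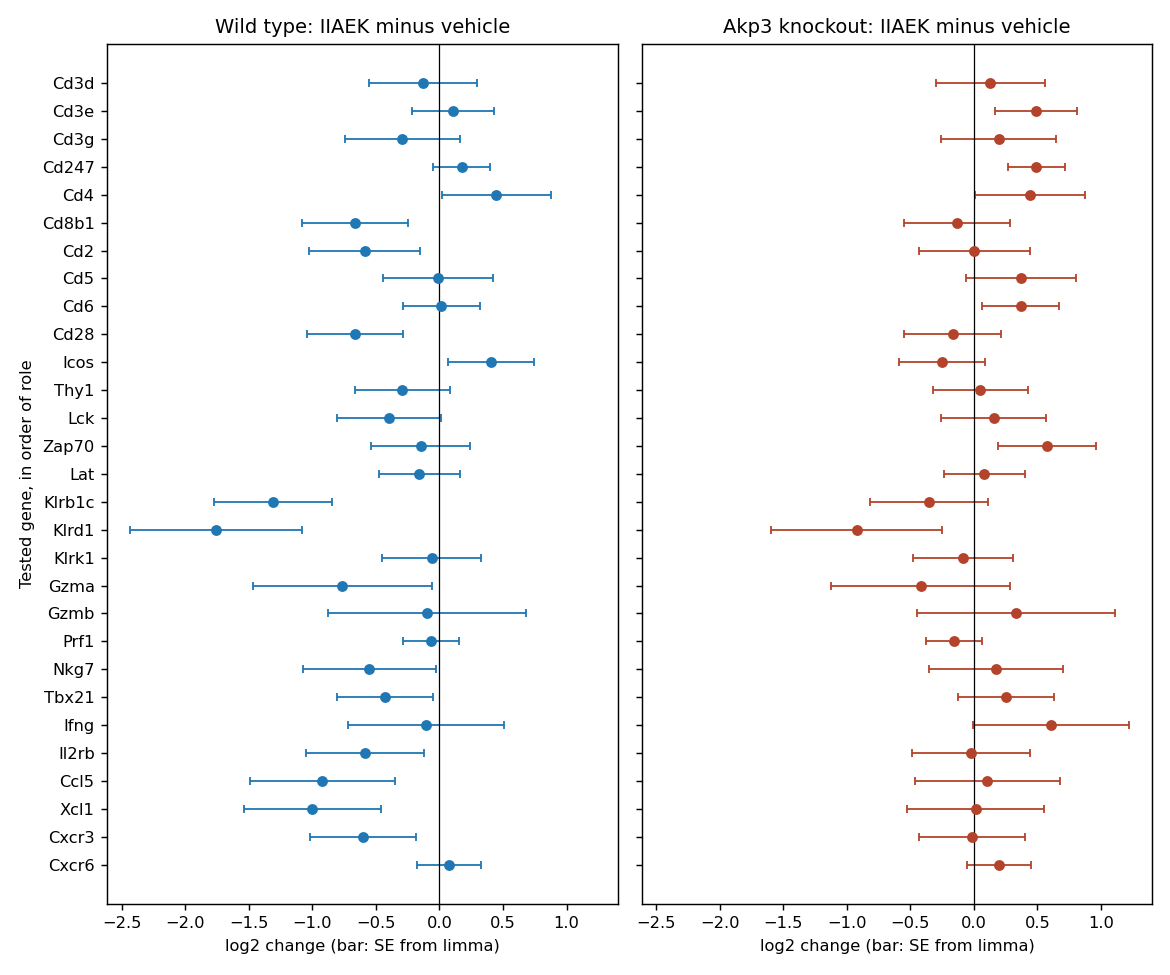
Log2 changes after IIAEK (IIAEK minus vehicle, 3 mice per group) of the 29 tested genes in wild-type (left) and knockout (right) liver, with bars of 1 SE from limma. In wild-type mice Klrd1 (-1.76) and Klrb1c (-1.31) lie farthest to the left, and in knockout mice Klrd1 (-0.92) does, with most other bars crossing 0.

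In knockout liver IIAEK left the 29 genes on balance near 0. None passed in limma, where 0% of all genes did, and 0 had an unadjusted p under 0.05, where 6.29% of all genes did. The smallest p-values belonged to Cd247, Cd3e, Zap70 and Klrd1, the first 3 measured by the bright probes that ran apart from the other T cell genes. Cd247 was at 1.04 ± 0.49 with vehicle and 1.53 ± 0.14 with IIAEK, a log2 change of 0.49 (SE 0.22, adjusted p = 0.664). Cd3e had a log2 change of 0.49 (SE 0.32), Zap70 of 0.58 (SE 0.39) and Klrd1 of -0.92 (SE 0.67), with adjusted p from 0.664 to 0.666. Zap70 was higher in every IIAEK mouse than in every vehicle mouse, but only just (lowest IIAEK level 3.3585, highest vehicle level 3.3582). It was the only 1 of the 29 genes without overlap, where 8.77% of all genes were higher in this way. Of the 29, 0 were lower in this way, where 6.26% of all genes were. The median of the 29 genes was 0.11 against 0.04 over all genes, and 10 of 29 were lower, where 44.3% of all genes were. Without the 4 outlying vehicle arrays, which leaves knockout vehicle 2 as the only vehicle mouse of this genotype, assumed to vary like the other groups, the median was 0.65 and Klrd1 changed direction, to 0.54 (adjusted p = 1.0). Cd247 and Cd3e were then at -0.035 and -0.063.

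Averaged over both genotypes, Klrd1 (log2 change -1.34, SE 0.48, adjusted p = 0.184) and Klrb1c (-0.83, SE 0.33, adjusted p = 0.191) had the smallest p, followed by Cd247 (0.33, SE 0.16, adjusted p = 0.233) and Cd28 (-0.42, SE 0.27, adjusted p = 0.353). None of the 29 genes passed, where 0% of all genes did, and Klrd1 and Klrb1c had an unadjusted p under 0.05, where 22.9% of all genes did. The 29 genes had a median of -0.09, and 18 were lower, where 43.9% of all genes were. Klrd1 was lower with IIAEK on slide 1 (-1.07) and on slide 2 (-1.47), as was Klrb1c (-0.80 and -0.85). Without the 4 outlying vehicle arrays the changes were 0.077 for Klrd1, 0.073 for Klrb1c, -0.021 for Cd247 and 0.36 for Cd28, with 1 vehicle mouse left per genotype, so that each changed its direction. Leaving out wild-type vehicle 1 or knockout vehicle 2, which are the 2 vehicle arrays outside that group of 4, put 3 of the 29 genes past the threshold each time, where 24.9% and 9.86% of all genes passed. Klrd1 and Klrb1c were among them both times, joined by Cd4 without the first array and by Cd247 without the second. With array weights, which give arrays far from their group less weight, 5 of the 29 passed (Klrd1, Klrb1c, Cd28, Cd4 and Cd247), where 30.6% of all genes did.

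Knockout and wild-type livers were compared with vehicle and with IIAEK. These comparisons share their mice with those above and are not independent of them. With vehicle, none of the 29 genes passed, where 0.00379% of all genes did, and Cd247 had an unadjusted p under 0.05, lower in the knockout, where 3.79% of all genes did in that direction. Cd247 was at 1.57 ± 0.18 in wild-type and 1.04 ± 0.49 in knockout mice, a log2 difference of -0.53 (SE 0.22, adjusted p = 0.737). The next genes by p were Klrb1c (-0.81, SE 0.46), Gzma (-0.75, SE 0.70) and Icos, the costimulatory receptor gene (0.36, SE 0.34). Klrb1c and Gzma had opposite signs on the slides, with differences of 0.30 and 0.99 on slide 1 and -1.37 and -1.62 on slide 2. The groups overlapped in all 29 genes, where 5.30% of all genes were lower and 3.15% higher without overlap. The median of the 29 was -0.19 and 21 were lower, where 56.8% of all genes were.

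With IIAEK, the 29 genes were on balance higher in knockout than in wild-type mice, and none passed, where 0.00757% of all genes did. The unadjusted count was 0, where 7.84% of all genes had such a p. Cd8b1 was at -2.56 ± 0.059 in wild-type and -1.77 ± 0.90 in knockout mice, a log2 difference of 0.80 (SE 0.42, adjusted p = 0.632). It was the only 1 of the 29 genes whose groups did not overlap, where 13.0% of all genes were higher and 14.6% lower in this way. The chemokine receptor gene Cxcr3 (0.79, SE 0.42), the adhesion receptor gene Cd2 (0.75, SE 0.44) and Tbx21 (0.59, SE 0.38) came next, with adjusted p from 0.632 to 0.653. The median was 0.31, and 8 of 29 were lower, where 52.7% of all genes were. Leaving out 1 array at a time moved the median between 0.071 and 0.69.

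The last comparison asked whether the IIAEK effect depended on the genotype, as the difference between both effects, knockout minus wild type. None of the 29 genes passed, where 0% of all genes did, and 0 had an unadjusted p under 0.05, where 1.56% of all genes did. The smallest p-values were those of Klrb1c (0.95, SE 0.66), Icos (-0.66, SE 0.48), Zap70 (0.73, SE 0.55) and Xcl1 (1.01, SE 0.76), with an adjusted p of 1.0 for each. The difference was negative for 4 of the 29 genes, where it was for 48.9% of all genes, and its median was 0.49, between 0.18 and 0.84 when 1 array at a time was left out. Zap70 changed direction, to -0.27, without wild-type vehicle 1 and 2. The test of single genes therefore gave no call on a difference between genotypes, and it does not show that the effects were alike.

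Mice of the same group differed widely in these genes. The median SD of the 4 group means of the 29 genes was 0.254 against 0.213 over all genes, and the median within-group SD of 0.571, divided by the square root of 3 as for means of 3 mice, comes to 0.330. The within-group SD, before that division, was the larger of both for 28 of the 29 genes and for 78.1% of all genes. This count sets single mice against means of 3 mice, which spread less where groups do not differ. Gzmb had the highest within-group SD (1.09), followed by Gzma (0.986) and Klrd1 (0.943), and Prf1 (0.274), Cd247 (0.276) and Cxcr6 (0.322) the lowest. Cd247 was the only 1 of the 29 whose group means were spread more widely (SD 0.302) than its mice within groups.

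This spread was shared between genes. Knockout IIAEK 2 was the highest of the 12 arrays for 15 of the 29 genes, where it was for 3.08% of all genes. None of the 3 NK receptor genes tested was among the 15: their highest arrays were wild-type vehicle 2 and 3 and wild-type IIAEK 3. The lowest array was wild-type IIAEK 1 for 8 genes and knockout vehicle 2 for another 8, where these were lowest for 7.65% and 3.57% of all genes. Knockout IIAEK 2 was above knockout IIAEK 3 for 25 of the 29 genes (40.2% of all genes), by a median of 1.20 on the log2 scale, with Cd3e, Cd247, Cd4 and Zap70 as the exceptions. Gzmb differed most between these mice, by 2.66, followed, among genes above background on both arrays, by Ccl5 with 1.91 and Nkg7 with 1.78. Knockout vehicle 3 was above knockout vehicle 2 for 24 genes (41.8% of all genes), by a median of 1.01. The exceptions were the same 4 genes and Ifng, and the differences were widest for Gzma (2.40), Klrd1 (2.38) and Ccl5 (2.06). In wild-type IIAEK, mouse 3 was above mouse 1 for 27 genes (44.2% of all genes), by a median of 0.98, with Cd247 and Cd4 as the exceptions. Other pairs were closer by their medians, but several of them also shared a shift. Wild-type IIAEK 3 was above 2 for 25 genes (47.3% of all genes), by a median of 0.74. Knockout vehicle 1 was above 2 for 22 genes (43.5%), by 0.66. Knockout IIAEK 1 was above 3 for 24 genes (45.6%), by 0.58, and knockout IIAEK 2 above 1 for 28 genes (46.8%), by 0.57. Wild-type IIAEK 2 was above 1 for 18 genes (48.1% of all genes), by a median of 0.20. The widest pair in wild-type vehicle was mouse 3 above mouse 1, for 21 genes (42.3% of all genes), by a median of 0.41. The pairs knockout IIAEK 2 and 3 and knockout vehicle 2 and 3 were on slide 2, so their differences lie within a slide and scan day.

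**Figure D4:**
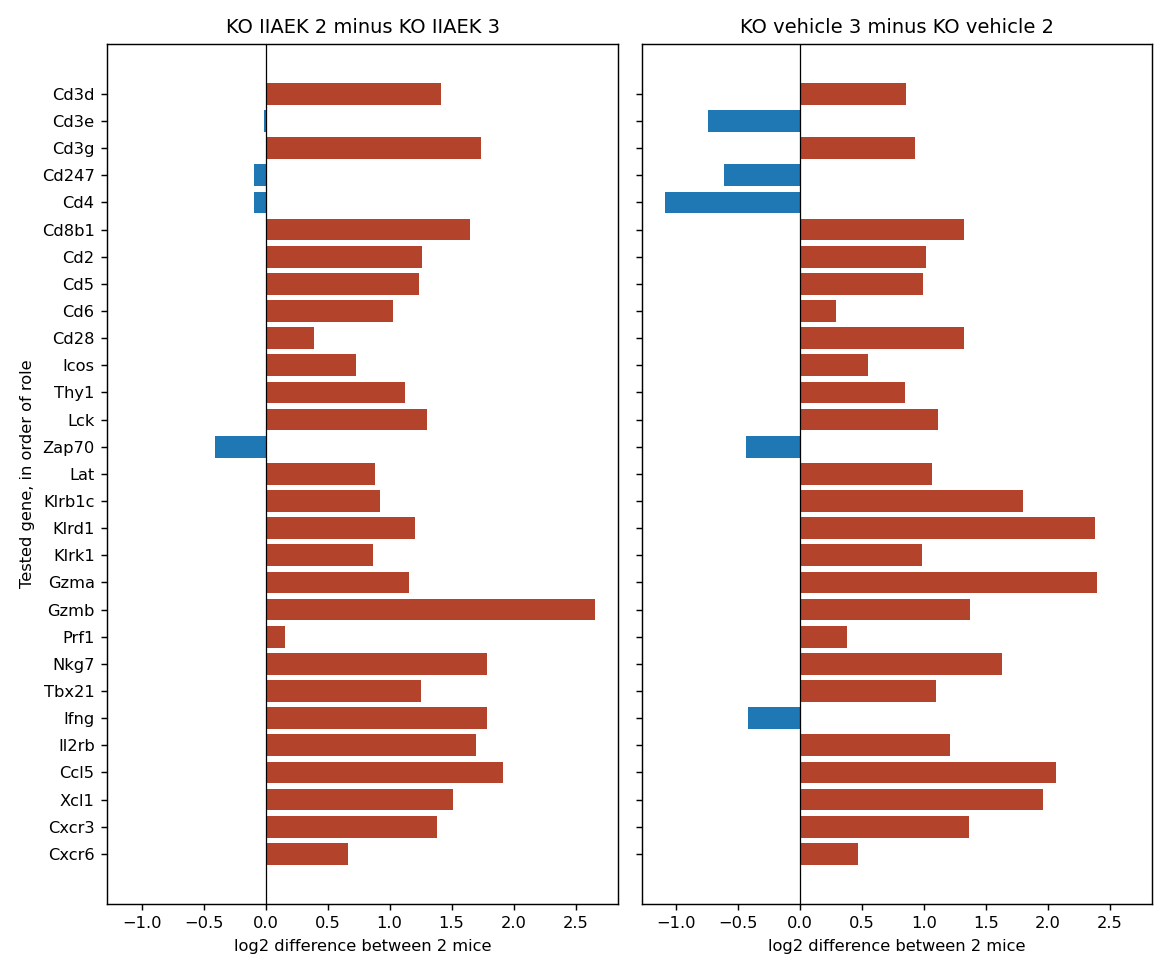
Log2 differences between 2 mice of the same group for the 29 tested genes, on the left knockout IIAEK 2 minus 3 and on the right knockout vehicle 3 minus 2, red where the first mouse was higher and blue where it was lower. On the left 25 of 29 bars are red, up to 2.66 for Gzmb, and on the right 24 are, up to 2.40 for Gzma.

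Other genes of T cells, NK cells and their partners were described from lists beside the 33 genes. Of 30 other T cell genes, 17 were tested and none passed in any of the 6 comparisons. In wild-type mice given IIAEK 13 of the 17 were lower, where 44.8% of all genes were, with a median log2 change of -0.57. Il7r, the interleukin 7 receptor gene, was lowest (-3.15, SE 1.04, adjusted p = 0.393). It was at -1.05, 1.45 and 2.30 in wild-type vehicle and -2.47, -2.55 and -1.73 in wild-type IIAEK. Of 34 other NK, NKT and cytotoxic genes, 32 were on the array and 20 were tested, again with no call. In wild-type mice 15 of the 20 were lower after IIAEK, where 44.8% of all genes were. The median was -0.67, counting genes that were not above background in this group. Among them was Klrb1b, a relative of Klrb1c, which was above background on all 3 wild-type vehicle arrays and 0 of 3 wild-type IIAEK arrays, and at least 2.94-fold lower against the lowest signal well above background on those arrays (adjusted p = 0.393). Klrb1a, another relative, was above background on 3 and 1 of these arrays. Whether probes of these related genes bind each other's transcripts was not tested. In knockout mice given IIAEK 14 of these 20 were lower, where 44.3% of all genes were, with a median of -0.27. Il12rb1, an interleukin 12 receptor gene, and S1pr5, the receptor gene for exit of NK cells from lymphoid organs, had the smallest p. Their log2 changes were 1.28 (SE 0.50) and 1.15 (SE 0.50), with an adjusted p of 0.664. Knockout vehicle 2 was at -1.89 and 0.29 for them, against -3.40 and -1.37 in vehicle 1 and -3.47 and -1.18 in vehicle 3. The knockout IIAEK arrays were at -1.81 to -1.33 and 0.38 to 0.43.

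Of 32 ligands and partners of the 33 genes, 29 were on the array and 20 were tested, with no call in any comparison. After IIAEK in wild-type mice 12 of the 20 were lower, where 44.8% of all genes were, with a median of -0.37. Cd1d1, which presents lipids to NKT cells, was higher (0.82, SE 0.32, adjusted p = 0.393) and Cd48, a ligand of CD2 and of the NK receptor CD244, lower (-1.33, SE 0.56, adjusted p = 0.393). In knockout mice Cxcl9, a ligand of CXCR3, was at 1.28 (SE 0.54) and Cd86, a ligand of CD28, at -1.07 (SE 0.47), both with an adjusted p of 0.664.

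Markers of other cell types moved with some of the T and NK cell genes. The 4 vehicle arrays on which Klrd1, Klrb1c and Cd28 were highest also had the highest medians of the neutrophil list (6 tested genes, 1.31 to 1.60 above the mean over 12 arrays, against -1.52 to 0.09 on the other 8). The macrophage and Kupffer cell list (14 genes) was at 0.58 to 0.90 there against -0.87 to 0.21, and the dendritic cell list (10 genes) at 0.59 to 0.88 against -0.80 to 0.16. All 14 and all 10 of these genes were above background on every array. The median of the 29 T and NK cell genes ran from 0.09 to 0.52 on these 4 arrays and from -0.60 to 0.75 on the other 8, so the ranges overlapped. The B cell list (12 tested genes) was highest in knockout vehicle 3, at 1.33, where 13 of its 14 genes were above background, and was at 0.39 in knockout IIAEK 2. Small intestine markers (6 tested genes) were at 3.74 in wild-type vehicle 2 with all 10 genes above background. They were at 1.30 and 1.07 in wild-type vehicle 1 and 3, with 7 and 6 genes above background. On the other 9 arrays they were at -1.57 to 0.07, with 2 to 6 genes above background. A gene could enter this median through wild-type vehicle alone, so the contrast between groups may in part be set by the filter. The list of intraepithelial lymphocyte markers (4 tested genes) was at -0.43 in wild-type vehicle 2, its lowest array. Exocrine pancreas markers were at 2.61 in wild-type vehicle 1 and next highest in wild-type IIAEK 1, at 0.50, with all 10 genes above background on both arrays. The part of these other cells in the levels of the T and NK cell genes was not tested.

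**Figure D5:**
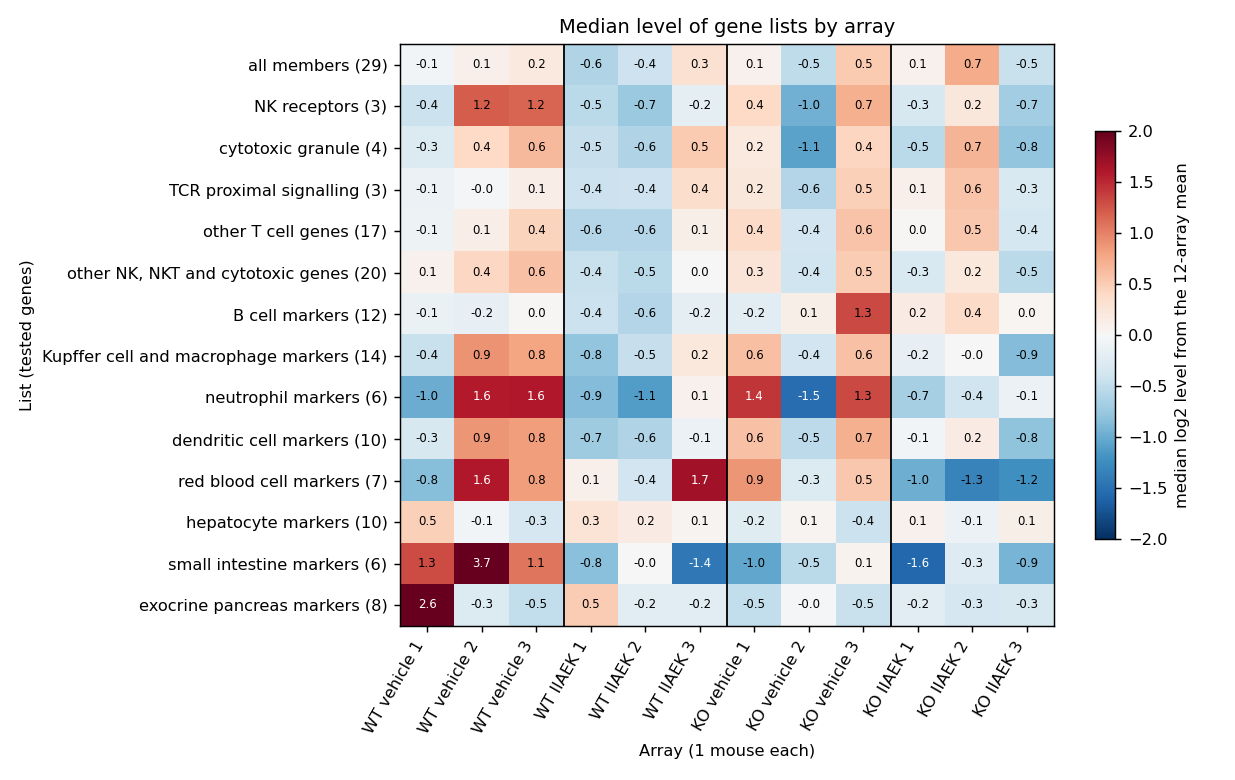
Median log2 level of gene lists (rows, number of tested genes in brackets) on the 12 arrays (columns), each gene taken from its mean over 12 arrays, with color limits of -2 and 2 and the rounded value in each cell. The T and NK cell genes peak in knockout IIAEK 2 (0.75), whereas the neutrophil markers peak on 4 vehicle arrays (1.31 to 1.60).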

How the data were processed

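Liver RNA of 12 mice was hybridised with Cy3 to 1-colour Agilent arrays. Per the file headers, the scans were read with Feature Extraction 10.7.3.1 against build mm9, and the deposited processed signal is an intensity with the background subtracted. The deposited series table holds log2 values that matched the scanner values shifted to the 75th percentile and centred per probe (r across probes at least 0.9999, column medians -0.154 to 0.171) and served as an alternative.

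Control, non-uniform and population-outlier spots were left out, and spots of a probe were averaged. RefSeq transcripts (GRCm38.p6) named 32994 of 56605 probes. Each gene was represented by its brightest probe, and values are log2 signal minus the array's 75th percentile. A gene was tested if at least 1 group had it well above background in all its mice (26405 genes, of which 9 lacked an array, none a T or NK cell gene). Using limma 3.58.1 (R 4.3.3), 1 model with a mean for each of the 4 groups was fitted across the 12 arrays, and two-sided p-values were adjusted by Benjamini-Hochberg over all genes tested. The procedure was tested on simulated data. Errors beside means are SD and beside changes SE.

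Named genes are those past the threshold, otherwise the 4 with the smallest p in each comparison, and Cd3e, Cd8a, Ncr1, Gzma, Prf1, Ccl5 and Cxcr6 on every array, with 2 genes for each other list. A gene this rule names is not reported here. Further genes were named after their values were seen. The genes and lists were chosen with earlier results of these data known. In 1 label field of the IIAEK samples the duration is in weeks, and the 14 days of the titles were used. The alternatives were normexp background correction, quantile normalization, the series table, no filter and a stricter filter, the mean over probes, slide and replicate number as blocks, slide 2 alone, only the groups compared, limma's trend with its robust option, weighting the arrays, and omitting arrays.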

Additional observations from a re-analysis of the deposited data

How the results depend on the processing

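With 3 mice per group, the number of arrays limits the precision. Across 14 alternatives, all 6 comparisons had 0 of the 29 genes called, except that the effect of IIAEK averaged over genotypes had 5 with array weights. The 12 fits that each left out 1 array gave 0 to 2 calls in wild-type liver, 0 to 3 in the average and 0 in the 4 other comparisons. The median change moved beyond its spread between mice once, in knockout liver, to 0.65 without the 4 outlying vehicle arrays. Without these arrays the sign turned in knockout liver for Cd247 (-0.035), Cd3e (-0.063), Klrd1 (0.54) and Klrb1c (0.74), and in the average for Klrd1 (0.077), Klrb1c (0.073), Cd247 (-0.021) and Cd28 (0.36). Without wild-type vehicle 1 and 2 it turned for Zap70 in the genotype dependence (-0.27). The cause was not tested. Among the named genes, 672 of their values kept both direction and side of the threshold, 11 passed it newly and 9 turned their sign.

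With the replicate number as a block, 0 of the 29 genes were called in any comparison, and Klrd1 in wild-type liver kept its change of -1.76 (adjusted p = 0.464). Deviations of same-numbered arrays from different groups correlated at -0.55 to 0.65 (median 0.039 over 18 pairs). Those of arrays with different numbers correlated at -0.69 to 0.78 (median 0.0063 over 36 pairs). In all, 6 of 12 arrays correlated best with an array of their own number. Number 1 was also slide 1 in each group. These values do not decide whether the numbers pair the samples.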

Other observations

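Some lists showed values outside the comparisons above. The red blood cell list (7 tested genes) had medians of 1.60 in wild-type vehicle 2 and 1.67 in wild-type IIAEK 3, and of -1.33 to -0.97 on all 3 knockout IIAEK arrays, the group that held the highest array of the T and NK cell genes. The platelet list (5 tested genes) was highest in knockout vehicle 3, at 1.12, the array on which the B cell list was highest as well. Bile duct markers (6 genes) were at 0.61 to 1.13 on the 4 outlying vehicle arrays, against -0.76 to -0.23 on the other 8. Plasma cell markers (6 tested genes) were highest in knockout vehicle 1 and 3, at 0.62 and 0.53. Liver endothelial markers (8 genes) stayed between -0.27 and 0.20 on all 12 arrays. Stellate cell markers (8 genes) ran from -0.51 to 0.45, and stroma markers of lymph node and spleen (6 tested genes) from -0.28 to 0.50.

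Among the other lymphocyte genes, Zbtb16, which encodes PLZF, a factor of NKT cells, had a log2 difference of -1.12 (SE 0.31, adjusted p = 0.628 in limma) between knockout and wild-type mice under IIAEK, and S1pr5 of 1.31 (SE 0.50). Ccr7, the homing receptor gene of naive T cells, had a difference of 1.01 (SE 0.47) and Tcf7 of 0.52 (SE 0.25) in the same comparison. All 17 tested genes of the list of other T cell genes were higher there, where 52.7% of all genes were lower, with a median of 0.43 and 0 calls. By array the list median was 0.03, 0.53 and -0.35 in knockout IIAEK and -0.58, -0.58 and 0.11 in wild-type IIAEK, so the mice overlapped. These genes moved together between mice.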
